A study of Marchantia polymorpha and Klebsormidium nitens with 56 samples.

Results

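A set of 46 genes of the liverwort Marchantia polymorpha had low transcript levels in plants that overexpress a heat shock factor of class A1, in both wild-type backgrounds and with both factors, without a matching fall when wild-type plants were heated. The set was chosen from the same count table that is described here. CPM, the reads of a gene scaled to 1000000 reads of its library, was averaged over the 2 libraries of each group, and 0.5 CPM was added on both sides of each ratio. A gene was kept when its ratio to the unheated wild type of the same background was at most 0.5 in all 4 overexpression groups and its heated to unheated ratio was at least 0.67 in both wild types. Genes of the male V chromosome were not allowed. The rule took 46 of the 20574 genes of the table. It started from 121 genes that met the overexpression limit, none of them V-linked, of which 75 were left out for their heat ratio (46 in both wild types, 20 in Tak-1 alone and 9 in BC3 alone). The levels in overexpressors, in heated wild types and in unheated wild types chose the members, so these are given below as a description, with no test.

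Libraries came from gemmalings, the young plants that grow from the vegetative propagules called gemmae, 7 days old and grown in continuous light at 22 °C, with heat given at 37 °C. The overexpression groups were HSFA1X ox and HSFA1Y ox plants (ox for overexpression), each in the Tak-1 and in the BC3 background, without heat. The mutant lines titled hsfb1 and hsfa1y (male background, Tak-1 as wild type) and hsfa1x (female background, BC3 as wild type) had heated and unheated libraries, as had the wild types Tak-1 (male) and BC3 (female). That made 14 groups of 2 libraries. The genotype label of hsfa1x reads ox, while its title and the sample sheet list it with the knockouts, and it is called the hsfa1x line here. Which promoter drives the overexpression, how many independent transgenic lines were used and how long each library's plants were heated is not given in the sources used here. Whether the 2 libraries of a group came from separate cultures is said only by the design text, which calls replicates biological; p-values measure the spread between these libraries.

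Heat shock factors are transcription factors that bind heat shock elements in promoters. In flowering plants such as Arabidopsis, class A1 factors are the activators that start the heat response, and class B1 factors lack the activation domain of class A and act mostly as repressors. Several of the members with a symbol belong to families known from plant defence and from the oxidative chemistry of the cell wall and of phenolic compounds.

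The 28 libraries held 17728437 to 23996844 reads, with 17728437 to 22066368 in the overexpressors and 19745004 to 21935128 in the unheated wild types. Reads of V-linked genes reached 2071 to 2707 CPM in the libraries labelled as male background and 385 to 948 CPM in those labelled as female background. The chi-square per degree of freedom between the 2 libraries of a group, 1 where counting error alone separates them, was 2.29 to 17.7. Heated and unheated libraries gave 17.7 and 9.19 in hsfa1y, 9.97 and 5.30 in hsfb1, and 7.73 and 17.3 in hsfa1x. The lowest value was that of HSFA1X ox BC3. The estimate of spread behind the p-values is shared by groups that differ this much. The identifiers of HSFA1X, HSFA1Y and HSFB1 are not paired with names in the sources used here, so the state of the targeted genes was not checked. The 8 overexpression libraries form 1 block: they carry the first 8 of the 28 library codes in the labels, so overexpression and that block cannot be told apart. The 4 hsfb1 libraries carry the last 4 codes. The hsfa1y libraries stood apart in makeup: the 10 genes with the most reads took 7.66 and 7.94% of the reads in unheated and 7.20 and 7.25% in heated hsfa1y, against 5.13 to 6.19% in the libraries of all other groups. In whole plants, fewer cells of a type and less RNA per cell cannot be told apart either. As a look at the makeup of the plants, 3 oil body genes (MpC1HDZ, MpERF13 and MpSYP12B) summed to 31.0 to 40.9 CPM in the overexpressors and 24.6 to 37.8 CPM in the unheated wild types, ranges that overlap. Most of that sum was MpC1HDZ, at 25.3 to 33.3 CPM in the overexpressors and 19.1 to 31.4 CPM in the unheated wild types. MpKAR, a gemma cup gene, read 11.3 to 20.2 CPM in the overexpressors and 12.8 to 18.7 CPM in the unheated wild types. MpGCAM1, another gemma cup gene, read 1.41 to 3.04 CPM and 1.02 to 2.14 CPM, ranges that also overlap.

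Together the 46 genes took 0.0629 to 0.116% of the reads of an overexpression library and 0.307 to 0.337% of the reads of an unheated wild type. Over all 20 libraries outside the block, their share was 0.241 to 0.501%, so no overexpression library came near the lowest of the others. Most of the share in the unheated wild types came from Mp7g02900 and Mp1g25360, at a mean of 1249 and 767 CPM. The next member stood at 204 CPM, so the summed share says little about the members of low level. The 8 overexpression libraries lay below all 4 unheated wild types in 45 of the 46 genes, the exception being Mp7g18870; the rule used these libraries, and among the 11716 genes of at least 1 CPM in the unheated wild types 8.87% did so. In 34 genes they also lay below every one of the other 20 libraries, heated wild types and mutants included. This held for 1.37% of those 11716 genes. The rule also used the overexpressors and wild types in this count, though not the mutants. The share among the members was thus set in part by how they were picked. The median ratio to the wild type was 0.336 in HSFA1X ox Tak-1, 0.284 in HSFA1Y ox Tak-1, 0.299 in HSFA1X ox BC3 and 0.324 in HSFA1Y ox BC3.

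**Figure D1:**
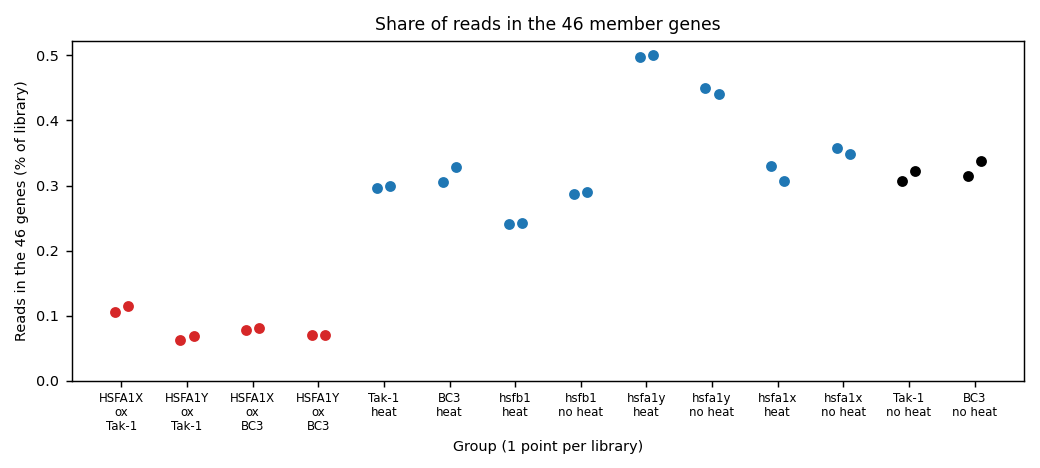
Share of each library's reads (percent, linear axis from 0) that fell in the 46 genes, with 1 point per library, for overexpression groups in red, heated wild types and mutants in blue and unheated wild types in black. The red points lie between 0.0629 and 0.116% and all other points between 0.241 and 0.501%, with the hsfa1y libraries at the top.

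**Figure D2:**
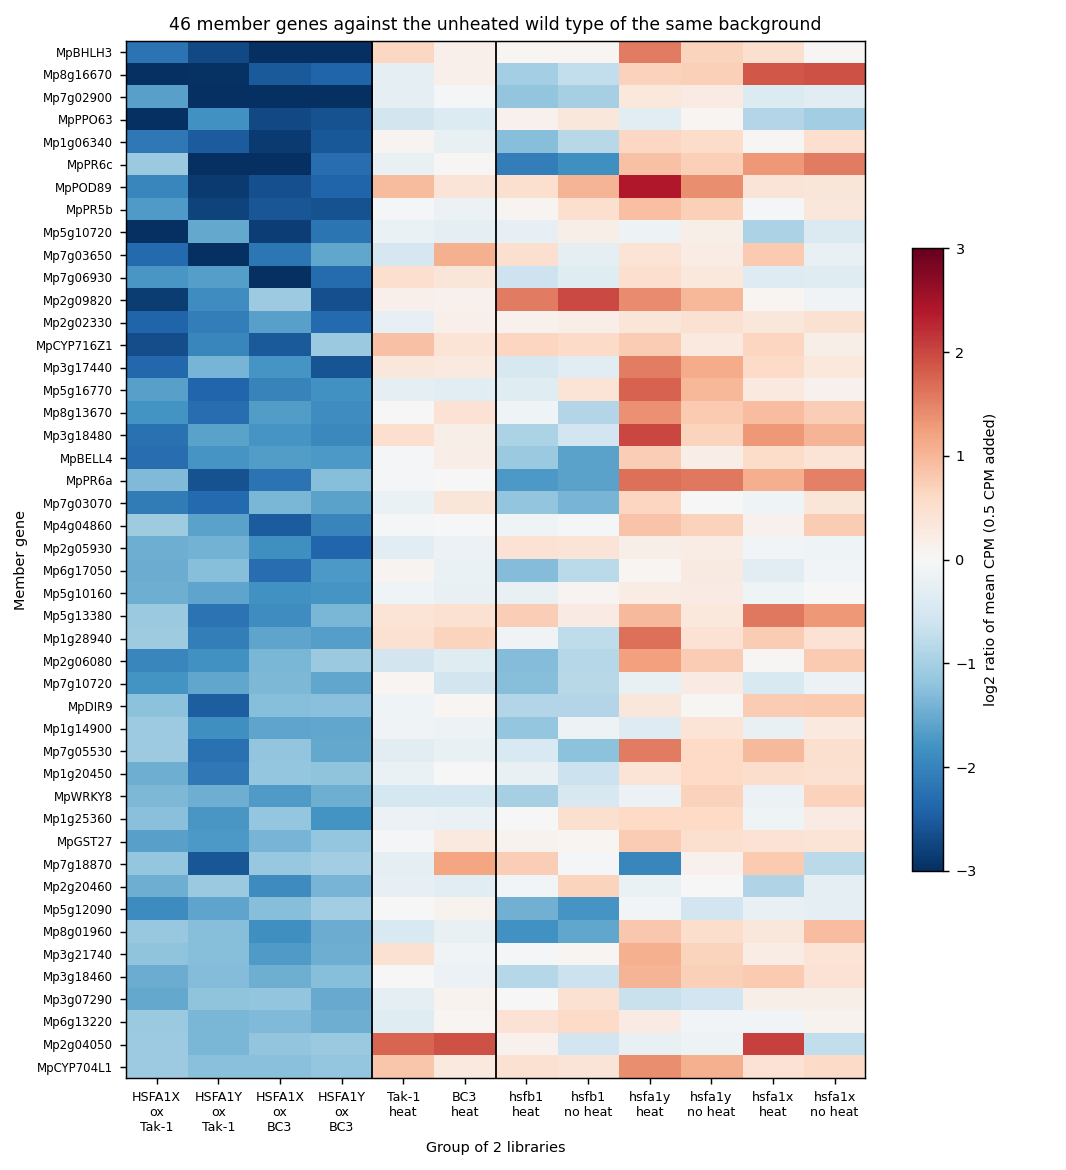
Log2 ratio of the group mean of each gene to the unheated wild type of the same background (0.5 CPM added on both sides), in rows ordered by the mean over the overexpression groups; colours saturate at 3 in each direction. The 4 columns on the left are blue throughout, as the rule requires, the heated wild types are pale, and the hsfa1y columns hold more red than the hsfb1 columns.

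All 46 identifiers matched a locus tag of the RefSeq gene table of assembly MpTak2_v7.1, which gives a symbol for 12 of them. The other 34 are named by identifier only. Members lie on all 8 autosomes, with 9 each on chromosomes 2 and 7 and 1 on chromosome 4, as the identifiers show (Mp7g for chromosome 7). In 3 cases members are near neighbours in that table: Mp3g18460 and Mp3g18480 have no gene between them, and 1 gene lies between MpPOD89 and Mp5g10720 and between MpCYP716Z1 and Mp7g03070. The mean level over the unheated wild types ran from 1.17 to 1249 CPM with a median of 14.5 CPM. At least 50 CPM was reached by 9 members and at least 5 CPM by 30, while 16 stayed below 5 CPM.

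Among the defence families, 3 members carry the symbol of pathogenesis-related (PR) proteins, which plants make in response to microbes. MpPR5b (Mp2g24470) belongs to the PR5 family, the thaumatin-like proteins. Its level was 28.3 and 30.7 CPM in HSFA1X ox Tak-1, 14.7 and 13.1 in HSFA1Y ox Tak-1, 15.4 and 16.4 in HSFA1X ox BC3, 13.5 and 17.4 in HSFA1Y ox BC3, against 93.1 and 102 in unheated Tak-1 and 92.2 and 102 in unheated BC3. The highest overexpression library was far below the lowest wild-type control. The ratio was 0.306 in HSFA1X ox Tak-1 and lower in the other 3 groups. MpPR6a (Mp8g09630) and MpPR6c (Mp8g12160) belong to the PR6 family, known as proteinase inhibitors. MpPR6a read 29.6 and 31.00 CPM in HSFA1X ox Tak-1, 11.5 and 12.8 in HSFA1Y ox Tak-1, 10.9 and 9.58 in HSFA1X ox BC3, 18.5 and 21.9 in HSFA1Y ox BC3, against 72.4 and 80.99 in unheated Tak-1 and 50.8 and 48.5 in unheated BC3. MpPR6c read 12.7 and 12.3 CPM in HSFA1X ox Tak-1, 1.85 and 2.31 in HSFA1Y ox Tak-1, 1.798 and 1.72 in HSFA1X ox BC3, 3.399 and 3.91 in HSFA1Y ox BC3, against 27.7 and 27.2 in unheated Tak-1 and 20.9 and 18.6 in unheated BC3. Among the overexpressors both had their highest CPM in HSFA1X ox Tak-1, and the 2 libraries of each group lay close together. As a ratio to the own wild type, MpPR6a was highest in HSFA1Y ox BC3, at 0.413 against 0.399 in HSFA1X ox Tak-1. The ratio of MpPR6c was highest in HSFA1X ox Tak-1, at 0.466.

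Proteins of oxidative and phenolic chemistry made up 4 of the named members. MpPOD89 (Mp5g10700) is a class III peroxidase, a family of secreted enzymes that oxidise phenolics with hydrogen peroxide. It read 16.4 and 11.96 CPM in HSFA1X ox Tak-1, 7.52 and 7.16 in HSFA1Y ox Tak-1, 6.03 and 11.9 in HSFA1X ox BC3, 8.34 and 12.9 in HSFA1Y ox BC3, against 53.03 and 60.7 in unheated Tak-1 and 53.8 and 62.9 in unheated BC3. The ratio was 0.256 in HSFA1X ox Tak-1 and 0.137, 0.161 and 0.189 in HSFA1Y ox Tak-1, HSFA1X ox BC3 and HSFA1Y ox BC3. Its near neighbour Mp5g10720 read 0.793 to 3.86 CPM over the 8 overexpression libraries and 11.3 to 14.4 over the 4 wild-type controls. MpPPO63 (Mp5g19820) is a polyphenol oxidase, a copper enzyme that turns phenols into quinones. It read 2.01 and 2.09 CPM in HSFA1X ox Tak-1, 5.51 and 5.08 in HSFA1Y ox Tak-1, 3.38 and 3.54 in HSFA1X ox BC3, 4.49 and 2.96 in HSFA1Y ox BC3, against 20.7 and 19.4 in unheated Tak-1 and 22.6 and 27.99 in unheated BC3. For this gene HSFA1X ox Tak-1 had the lowest CPM of the 4 groups, where the PR6 genes had their highest CPM. MpDIR9 (Mp3g22420) is of the dirigent family, proteins that steer the coupling of phenoxy radicals, and it read 62.6 and 69.6 CPM in HSFA1X ox Tak-1, 28.9 and 26.3 in HSFA1Y ox Tak-1, 40.1 and 44.4 in HSFA1X ox BC3, 43.01 and 42.7 in HSFA1Y ox BC3, against 157 and 152 in unheated Tak-1 and 95.4 and 109.8 in unheated BC3. MpGST27 (Mp7g00790), a glutathione S-transferase of the family that conjugates glutathione to reactive compounds, read 5.19 to 6.87 CPM over the 8 overexpression libraries and 13.98 to 20.5 over the 4 wild-type controls.

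Cytochromes P450, a family of oxidising enzymes, held 2 members with symbols. MpCYP716Z1 (Mp7g03050) belongs to the CYP716 family, known in flowering plants for oxidising triterpenes, and read 1.45 to 7.497 CPM over the 8 overexpression libraries and 15.04 to 17.3 over the 4 wild-type controls. Its 8 overexpression libraries differed among themselves, with 6.299 and 7.497 CPM in HSFA1Y ox BC3 against 1.798 and 2.86 CPM in HSFA1X ox BC3. Mp7g03070, which has 1 gene between it and MpCYP716Z1, read 0 to 0.469 CPM over the 8 overexpression libraries and 1.61 to 2.58 over the 4 wild-type controls. MpCYP704L1 (Mp6g16900), of a family that in flowering plants hydroxylates fatty acids, read 2.81 to 3.801 CPM over the 8 overexpression libraries and 7.75 to 8.53 over the 4 wild-type controls and had the mean log2 ratio nearest to 0 of all members at -1.18.

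Transcription factors with a symbol were 3. MpBHLH3 (Mp2g00910), of the basic helix-loop-helix family, had the lowest mean log2 ratio of the members at -2.83, a value Mp8g16670 shares when rounded. It read 5.51 and 5.55 CPM in HSFA1X ox Tak-1, 3.55 and 4.06 in HSFA1Y ox Tak-1, 4.07 and 3.33 in HSFA1X ox BC3, 3.31 and 2.53 in HSFA1Y ox BC3, against 26.1 and 28.8 in unheated Tak-1 and 34.1 and 34.6 in unheated BC3. The 8 overexpression libraries lay close together and apart from the 4 wild-type controls. MpWRKY8 (Mp2g20960) belongs to the WRKY family, known in flowering plants for regulating defence genes, and read 11.2 and 13.1 CPM in HSFA1X ox Tak-1, 10.3 and 11.8 in HSFA1Y ox Tak-1, 7.56 and 5.99 in HSFA1X ox BC3, 7.98 and 7.92 in HSFA1Y ox BC3, against 31.1 and 32.1 in unheated Tak-1 and 22.9 and 23.1 in unheated BC3. MpBELL4 (Mp8g07680), a homeodomain protein of the BELL class, was near the limit of detection: its reads were 1 and 3 in HSFA1X ox Tak-1, 9 and 4 in HSFA1Y ox Tak-1, 3 and 2 in HSFA1X ox BC3 and 4 and 1 in HSFA1Y ox BC3, against 49 and 48 in unheated Tak-1 and 20 and 46 in unheated BC3.

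**Figure D3:**
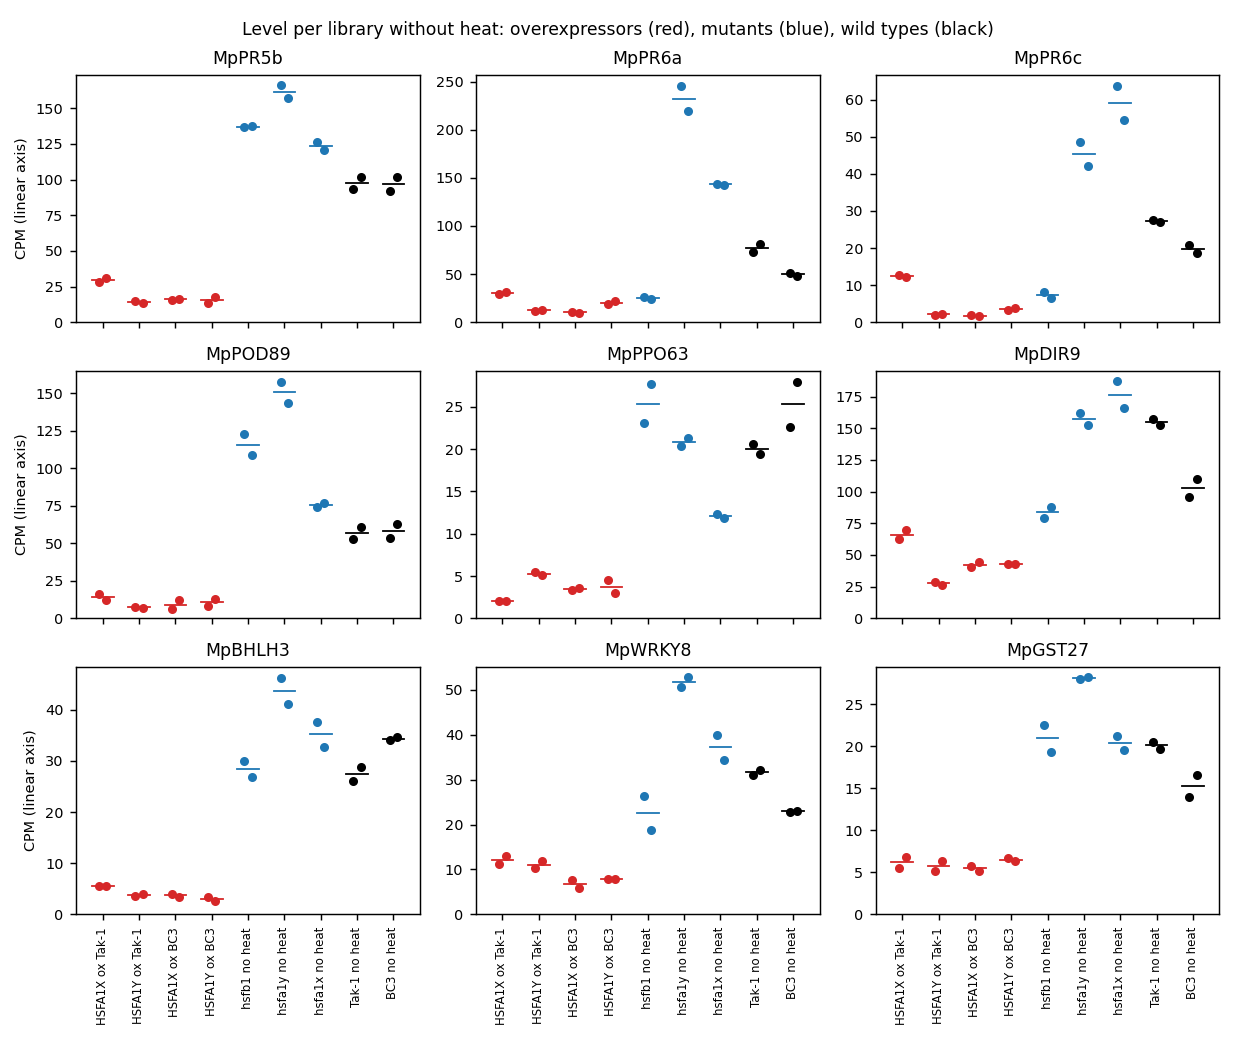
CPM (linear axis from 0) of 9 members with a symbol in each unheated library, 2 points per group and a bar at their mean, with overexpressors in red, mutants in blue and wild types in black. The red points lie below all black points in each panel, and MpPR6a and MpPR6c stand low in hsfb1 and high in hsfa1y and hsfa1x.

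Among members without a symbol, Mp7g02900 had the highest CPM. It read 350.0 and 403 CPM in HSFA1X ox Tak-1, 124 and 145 in HSFA1Y ox Tak-1, 124 and 120.5 in HSFA1X ox BC3, 162 and 159.8 in HSFA1Y ox BC3, against 1111 and 1219.7 in unheated Tak-1 and 1319 and 1346 in unheated BC3. HSFA1X ox Tak-1 kept the highest level of the 4 groups, with a ratio of 0.324, against 0.0921 in HSFA1X ox BC3. Mp1g25360 was next in level, at 193 to 373 CPM over the 8 overexpression libraries and 699 to 904 over the 4 wild-type controls. Mp3g21740 read 60.6 to 90.1 CPM over the 8 overexpression libraries and 198 to 212 over the 4 wild-type controls.

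Other members without a symbol also differed between the overexpression groups. Mp2g09820 read 5.79 and 5.600 CPM in HSFA1X ox Tak-1, 11.3 and 12.2 in HSFA1Y ox Tak-1, 22.4 and 26.1 in HSFA1X ox BC3, 9.47 and 6.55 in HSFA1Y ox BC3, against 42.9 and 45.3 in unheated Tak-1 and 49.2 and 55.9 in unheated BC3, so its level in HSFA1X ox BC3 was above that of the other 3 groups. Mp1g06340 read 1.43 to 6.21 CPM over the 8 overexpression libraries and 19.2 to 27.9 over the 4 wild-type controls, and Mp7g03650 read 0.451 to 1.79 CPM over the 8 overexpression libraries and 4.88 to 9.65 over the 4 wild-type controls. Mp7g06930 read 0.317 to 1.495 CPM over the 8 overexpression libraries and 3.49 to 8.198 over the 4 wild-type controls. Mp2g02330 and Mp5g10160 were steadier: Mp2g02330 read 9.19 to 16.1 CPM over the 8 overexpression libraries and 43.7 to 59.2 over the 4 wild-type controls, and Mp5g10160 read 14.8 to 22.4 CPM over the 8 overexpression libraries and 48.5 to 62.3 over the 4 wild-type controls.

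Of the other members between 5 and 50 CPM in the wild types, Mp1g28940 read 11.2 to 25.9 CPM over the 8 overexpression libraries and 41.98 to 56.6 over the 4 wild-type controls, and Mp1g14900 read 12.2 to 23.1 CPM over the 8 overexpression libraries and 39.8 to 50.9 over the 4 wild-type controls. Mp3g17440 read 4.12 to 11.8 CPM over the 8 overexpression libraries and 27.7 to 34.3 over the 4 wild-type controls. Mp7g05530 read 4.68 to 13.8 CPM over the 8 overexpression libraries and 17.7 to 28.4 over the 4 wild-type controls. In these the groups did not overlap. Mp2g20460 read 5.74 to 9.98 CPM over the 8 overexpression libraries and 19.1 to 24.3 over the 4 wild-type controls, Mp2g05930 1.64 to 3.89 CPM over the 8 overexpression libraries and 9.88 to 14.8 over the 4 wild-type controls and Mp7g10720 2.38 to 4.34 CPM over the 8 overexpression libraries and 7.75 to 12.3 over the 4 wild-type controls. Mp5g13380 read 0.625 to 3.08 CPM over the 8 overexpression libraries and 3.696 to 7.34 over the 4 wild-type controls. Mp7g18870 read 24.4 and 28.4 CPM in HSFA1X ox Tak-1, 9.63 and 9.48 in HSFA1Y ox Tak-1, 11.3 and 9.897 in HSFA1X ox BC3, 10.7 and 11.98 in HSFA1Y ox BC3, against 61.5 and 56.8 in unheated Tak-1 and 21.3 and 26.3 in unheated BC3. Its libraries of HSFA1X ox Tak-1 thus overlapped with those of unheated BC3, whose level was below that of unheated Tak-1.

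The members of low level rest on few reads. The 16 below 5 CPM were Mp1g20450, Mp2g04050, Mp2g06080, Mp3g07290, Mp3g18460, Mp3g18480, Mp4g04860, Mp5g12090, Mp5g16770, Mp6g13220, Mp6g17050, Mp7g03070, Mp8g01960, MpBELL4, Mp8g13670 and Mp8g16670. Their overexpression libraries lay between 0 and 1.63 CPM. Mp8g16670 had 1 and 0 reads in HSFA1X ox Tak-1, 7 and 1 in HSFA1Y ox Tak-1, 0 and 0 in HSFA1X ox BC3 and 2 and 0 in HSFA1Y ox BC3, against 99 and 105 in unheated Tak-1 and 46 and 57 in unheated BC3. Mp2g06080 likewise had 0 reads in both libraries of HSFA1X ox BC3. For 6 members the wild-type mean was under 2 CPM, and there the added 0.5 CPM weighs on the ratio.

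The size of the ratio differed between the 4 overexpression groups. In Tak-1 the ratio was lower with HSFA1Y than with HSFA1X in 28 of the 46 genes, and in BC3 in 17 of 46. Across the 4 groups the lowest ratio fell to HSFA1Y ox Tak-1 in 17 genes, HSFA1X ox Tak-1 in 13, HSFA1X ox BC3 in 11 and HSFA1Y ox BC3 in 5. HSFA1X ox Tak-1 held the highest ratio in 20 genes. Because the rule used these values, these counts are a description. Nor can factor or background be told apart from the transgenic line, as the number of lines is not given.

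Among genes of at least 5 CPM in the unheated wild types, the members with the highest overexpression ratios were Mp7g18870 at 0.489 and Mp1g28940 at 0.474. The nearest genes outside at that level were MpPKS/CHS16, of the chalcone synthase family, at 0.503 and Mp7g15440 at 0.503. On the heat side, again among genes of at least 5 CPM, the members nearest to the limit were Mp7g10720 at 0.681 and MpPPO63 at 0.684. Mp5g22410 at 0.658 and Mp8g16160 at 0.635 were just outside.

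Heat left the wild-type levels of most members near those without heat. The median heated to unheated ratio was 0.940 in Tak-1 and 1.04 in BC3. The rule set only a lower limit of 0.67 on this ratio and no upper limit. A ratio of at least 1.5 was seen in 5 members in Tak-1 and in 4 in BC3, where 10.9% and 8.87% of the genes of at least 1 CPM had one. Mp2g04050 was the only one with both: it read 9.11 and 10.02 CPM in heated Tak-1 against 2.94 and 2.05 in unheated Tak-1, and 6.58 and 6.46 CPM in heated BC3 against 0.948 and 1.78 in unheated BC3. Heated libraries of this gene lay above all unheated ones. MpPOD89 read 107 and 114 CPM in heated Tak-1 against 53.03 and 60.7 in unheated Tak-1, and 81.2 and 71.1 CPM in heated BC3 against 53.8 and 62.9 in unheated BC3. Heat and overexpression thus stood on opposite sides of the unheated wild type for these 2 genes, and not for them alone. The heat ratios in Tak-1 and BC3 were 1.83 and 1.32 for MpCYP716Z1 and 1.78 and 1.23 for MpCYP704L1. They were 1.55 and 1.12 for MpBHLH3 and 1.38 and 1.60 for Mp1g28940. A heat ratio below 1 was seen in 30 members in Tak-1 and in 21 in BC3. Values of Mp7g18870 lay on different sides in the wild types, with 57.1 and 52.9 CPM in heated BC3 against 21.3 and 26.3 in unheated BC3, but 46.8 and 50.8 CPM in heated Tak-1 against 61.5 and 56.8 in unheated Tak-1.

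The mutant lines were not used by the rule, but the unheated wild types they are set against were, and a gene picked for a high wild-type level has less room to stand above it. Values of mutants against wild types are therefore also given without a test. Both unheated hsfa1y libraries lay above both Tak-1 libraries in 34 of the 46 members and below them in 2, while among the 11716 genes of at least 1 CPM in the wild-type controls 18.5% lay above and 41.8% below. The median ratio of hsfa1y to Tak-1 was 1.39 over the members. MpPR6a gave 246 and 219 CPM in hsfa1y against 72.4 and 80.99 in Tak-1, and MpPOD89 157 and 144 CPM in hsfa1y against 53.03 and 60.7 in Tak-1. The Tak-1 overexpressors are set against the same 2 Tak-1 libraries. Their direction, below Tak-1 in HSFA1X ox and HSFA1Y ox Tak-1, was required by the rule and is no result. The direction in hsfa1y, above Tak-1 in most members, was not required, though the rule used those Tak-1 libraries.

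In hsfb1, 15 members lay above Tak-1 with both libraries and 24 below, against 29.0% and 46.1% of the genes of at least 1 CPM, and the median ratio was 0.800. The direction was mixed: Mp2g09820 gave 173 and 177 CPM in hsfb1 against 42.9 and 45.3 in Tak-1, and MpPR6c 8.05 and 6.55 CPM in hsfb1 against 27.7 and 27.2 in Tak-1. In hsfa1x, 24 members lay above BC3 and 6 below, against 21.3% and 31.0% of those genes, with a median ratio of 1.28. Mp8g16670 gave 10.8 and 10.1 CPM in hsfa1x against 2.18 and 2.599 in BC3, MpPR6c 63.7 and 54.6 CPM in hsfa1x against 20.9 and 18.6 in BC3. MpPPO63 went the other way, with 12.3 and 11.9 CPM in hsfa1x against 22.6 and 27.99 in BC3.

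A comparison that uses none of the libraries of the rule is that of the lines hsfb1 and hsfa1y without heat, which share the male background. Of the 46 members, 31 were lower in hsfb1 and 3 higher (edgeR quasi-likelihood test, Benjamini-Hochberg adjusted over all 13432 genes tested, adjusted p below 0.05). Of all genes tested, 22.1% were lower and 21.7% higher and of the members 67.4% and 6.52%. The median log2 fold change of the members was -0.75, against -0.0031 over all genes. A change of at least 2-fold was reached by 20 of the 31, and among all genes tested 4.25% were lower by that much. With 1 library left out, 26 of the 34 calls were kept whichever library it was. The part of the makeup of the hsfa1y libraries, in which a few genes took more of the reads, was not tested. The 2 PR6 genes were far apart between the lines. MpPR6a had 26.01 and 23.8 CPM in hsfb1 and 246 and 219 in hsfa1y (log2 fold change -3.23 ± 0.091 SE, edgeR adjusted p = 7.49e-18), and MpPR6c 8.05 and 6.55 in hsfb1 and 48.8 and 42.1 in hsfa1y (-2.64 ± 0.11 SE, edgeR adjusted p = 2.71e-14). MpPR5b, the other PR member, had a log2 fold change of -0.24 ± 0.094 SE, edgeR adjusted p = 0.0412, with 137 and 137 CPM in hsfb1 and 166 and 157 in hsfa1y, and the call was lost without hsfa1y library 1 (adjusted p = 0.173), hsfb1 library 1 (0.117) or hsfb1 library 2 (0.0853).

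The other members with a symbol, regulators and enzymes, differed between the lines to different degrees. MpBELL4 had 7 and 13 reads in hsfb1 and 57 and 69 in hsfa1y (-2.64 ± 0.41 SE, edgeR adjusted p = 1.47e-05), and Mp8g01960 0.861 and 0.478 CPM in hsfb1 and 5.23 and 3.57 in hsfa1y (-2.69 ± 0.38 SE, edgeR adjusted p = 4.18e-06). MpWRKY8 read 26.4 and 18.7 CPM in hsfb1 and 50.6 and 52.8 in hsfa1y (-1.20 ± 0.13 SE, edgeR adjusted p = 1.04e-07). MpBHLH3 was also lower (-0.62 ± 0.10 SE, edgeR adjusted p = 2.42e-05), as were MpDIR9 (-0.92 ± 0.10 SE, edgeR adjusted p = 1.09e-07), MpCYP704L1 (-0.69 ± 0.14 SE, edgeR adjusted p = 3.08e-04) and MpGST27 (-0.43 ± 0.12 SE, edgeR adjusted p = 0.00483). Mp7g02900 read 549 and 614 CPM in hsfb1 and 1365 and 1409 in hsfa1y (-1.26 ± 0.10 SE, edgeR adjusted p = 1.21e-09). The 3 genes that were higher in hsfb1 have no symbol: Mp3g07290 (1.22 ± 0.33 SE, edgeR adjusted p = 0.00424), Mp2g09820 (0.97 ± 0.11 SE, edgeR adjusted p = 2.44e-07) and Mp2g20460 (0.66 ± 0.14 SE, edgeR adjusted p = 4.98e-04). MpPOD89 (-0.38 ± 0.16 SE, edgeR adjusted p = 0.0534), MpPPO63 (0.28 ± 0.14 SE, edgeR adjusted p = 0.119) and MpCYP716Z1 (0.27 ± 0.18 SE, edgeR adjusted p = 0.239) were among the 12 that did not pass. The call of MpGST27 was lost without hsfb1 library 2 (adjusted p = 0.0646). The call of Mp3g07290 was lost without hsfa1y library 1 (adjusted p = 0.0713) or without hsfb1 library 2 (0.0906). The comparison cannot say which of the lines departs from the wild type, and genotype and the position of hsfb1 in the library codes cannot be told apart.

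**Figure D4:**
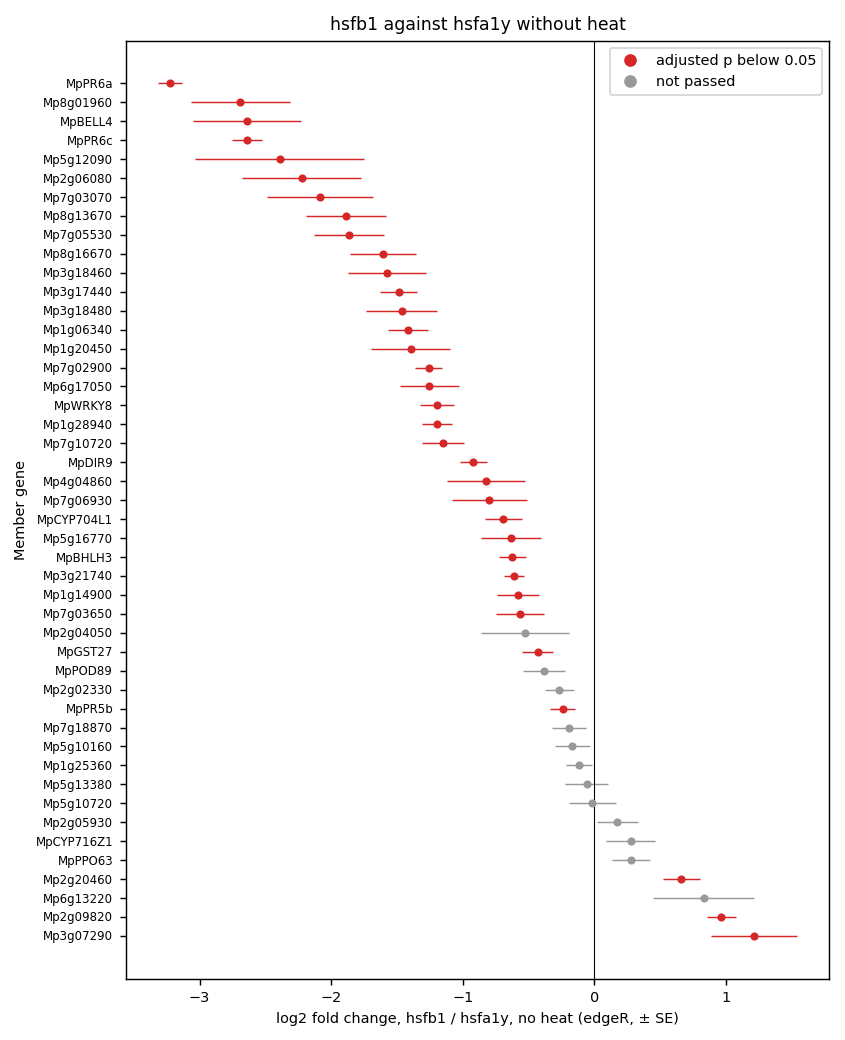
Fitted log2 fold change (hsfb1 over hsfa1y, without heat) with its standard error for each of the 46 members, ordered by value; red points passed the edgeR test at an adjusted p below 0.05 and grey points did not. Of the red points, 31 lie to the left of 0 and 3 to the right, from MpPR6a at -3.23 to Mp3g07290 at 1.22.

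Heat was tested in the mutant lines, whose libraries the rule did not use. In hsfb1, 7 members were higher and 10 lower with heat, where the whole table gave 18.8% higher and 21.6% lower. In hsfa1y, 9 were higher and 5 lower, where the table gave 22.1% and 22.4%. In hsfa1x, 6 were higher and 10 lower, where the table gave 19.8% and 22.0%. The members' shares were thus near the background or under it, and 20 members passed in none of the 3 lines. How many of all genes tested passed in none was not computed, so that count is a description and no result about the set. Calls kept whichever library was left out were 7 of 17 in hsfb1, 7 of 14 in hsfa1y and 6 of 16 in hsfa1x. The 20 without a call include Mp7g02900, MpDIR9, MpGST27, MpCYP704L1 and MpBELL4. The counts in hsfb1 and hsfa1x depend on single libraries: the 10 lower genes in hsfa1x became 3 without its unheated library 1 and 4 without its heated library 2, the 10 lower in hsfb1 became 6 without its unheated library 1, and the 7 higher in hsfb1 became 4, 4 and 3 without its unheated library 1, its unheated library 2 and its heated library 1. In hsfa1y, the 5 lower genes became 8 without its unheated library 2.

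A few members passed in the same direction in all 3 lines. The share of all genes that did so was not computed. MpWRKY8 was lower with heat in each, with 30.9 and 25.4 CPM in heated against 50.6 and 52.8 in unheated hsfa1y (-0.98 ± 0.13 SE, edgeR adjusted p = 1.05e-06). Its changes were -0.53 ± 0.14 SE, edgeR adjusted p = 0.00362 in hsfb1 and -0.87 ± 0.13 SE, edgeR adjusted p = 1.03e-05 in hsfa1x. MpWRKY8 was also lower with heat in both wild types, just inside the limit of the rule. It read 20.9 and 22.9 CPM in heated against 31.1 and 32.1 in unheated Tak-1 (ratio 0.698). In BC3 it read 16.9 and 14.7 CPM with heat against 22.9 and 23.1 without (ratio 0.694). Mp1g14900 was also lower in each mutant line, by a log2 fold change of -1.02 ± 0.17 SE, edgeR adjusted p = 3.59e-05 in hsfb1, -0.92 ± 0.16 SE, edgeR adjusted p = 5.88e-05 in hsfa1y and -0.51 ± 0.16 SE, edgeR adjusted p = 0.0144 in hsfa1x. Mp1g28940 was the only member higher in all 3. It read 47.9 and 49.1 CPM in heated and 33.1 and 28.97 in unheated hsfb1 (0.65 ± 0.12 SE, edgeR adjusted p = 9.79e-05), and 167 and 168 CPM in heated and 72.7 and 68.97 in unheated hsfa1y (1.14 ± 0.11 SE, edgeR adjusted p = 8.88e-09). In hsfa1x its change was 0.35 ± 0.11 SE, edgeR adjusted p = 0.0145. Some of these calls rest on single libraries: that of MpWRKY8 in hsfb1 was lost without unheated library 1 (adjusted p = 0.194), and in hsfa1x those of Mp1g14900 and Mp1g28940 were lost without unheated library 1 (0.386 and 0.0764) or heated library 1 (0.105 and 0.183).

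Other members passed in 1 or 2 of the lines. Mp2g04050, the gene with the highest heat ratios in both wild types, read 6.89 and 7.45 CPM in heated and 0.91 and 0.323 in unheated hsfa1x (3.52 ± 0.36 SE, edgeR adjusted p = 1.82e-08). In hsfb1 it passed with all libraries (0.88 ± 0.33 SE, edgeR adjusted p = 0.0352), and the call was lost when any 1 of the 4 libraries was left out, with adjusted p from 0.0677 to 0.142. In hsfa1y it read 2.45 and 1.67 CPM in heated and 2.69 and 1.698 in unheated plants and did not pass (-0.19 ± 0.32 SE, edgeR adjusted p = 0.666). Mp7g03650 was higher with heat in hsfb1 (0.82 ± 0.18 SE, edgeR adjusted p = 8.11e-04) and in hsfa1x (1.09 ± 0.20 SE, edgeR adjusted p = 8.00e-05). Mp8g13670 was higher in hsfb1 (0.89 ± 0.32 SE, edgeR adjusted p = 0.0309), a call lost without unheated library 1 (adjusted p = 0.368) or heated library 1 (0.168). MpBHLH3 was higher in hsfa1y (0.80 ± 0.10 SE, edgeR adjusted p = 2.97e-07) and in hsfa1x (0.46 ± 0.10 SE, edgeR adjusted p = 5.68e-04).

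Besides MpWRKY8 and Mp1g14900, 4 members were lower with heat in both hsfb1 and hsfa1x. The share of all genes lower in both lines was not computed, so this count is a description. MpPR5b changed by -0.41 ± 0.10 SE, edgeR adjusted p = 0.00114 in hsfb1 and by -0.40 ± 0.10 SE, edgeR adjusted p = 0.00176 in hsfa1x, where the call was lost without heated library 2 (adjusted p = 0.0745). Mp2g20460 changed by -0.75 ± 0.14 SE, edgeR adjusted p = 1.46e-04 in hsfb1 and by -0.61 ± 0.15 SE, edgeR adjusted p = 0.00188 in hsfa1x, where the call was lost without unheated library 1 (adjusted p = 0.0774). Mp1g25360, the member with the second highest CPM, changed by -0.46 ± 0.10 SE, edgeR adjusted p = 4.45e-04 in hsfb1 and by -0.36 ± 0.10 SE, edgeR adjusted p = 0.00387 in hsfa1x, where the call was lost without unheated library 1 (adjusted p = 0.0638) or heated library 2 (0.121). Mp1g06340 changed by -0.46 ± 0.17 SE, edgeR adjusted p = 0.0301 in hsfb1 and by -0.45 ± 0.15 SE, edgeR adjusted p = 0.0196 in hsfa1x, and the call was lost in hsfb1 without unheated library 1 (adjusted p = 0.491), heated library 1 (0.0845) or heated library 2 (0.134), and in hsfa1x without unheated library 1 (0.14995) or heated library 2 (0.125). MpPR6a (-0.42 ± 0.082 SE, edgeR adjusted p = 2.27e-04) and MpPR6c (-0.25 ± 0.10 SE, edgeR adjusted p = 0.04) were lower with heat in hsfa1x, but the call of MpPR6c was lost without unheated library 1 (adjusted p = 0.492), heated library 1 (0.0639) or heated library 2 (0.218), in the DESeq2 Wald test (0.0834), with no filter (0.115) and with the compared groups alone (0.0957). Mp4g04860 was barely past the threshold there (-0.67 ± 0.27 SE, edgeR adjusted p = 0.0495), and the call was lost in the DESeq2 Wald test (0.0758), with DESeq2 size factors in edgeR (0.0515), with the replicate block (0.0501), and without unheated library 1 (0.435), heated library 1 (0.0991) or heated library 2 (0.208). MpPPO63 was lower with heat in hsfa1y (-0.49 ± 0.15 SE, edgeR adjusted p = 0.00823), a call lost without heated library 1 (adjusted p = 0.132). MpCYP716Z1 was higher in hsfa1x (0.51 ± 0.19 SE, edgeR adjusted p = 0.0319), a call lost without unheated library 2 (adjusted p = 0.187) or heated library 1 (0.211).

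**Figure D5:**
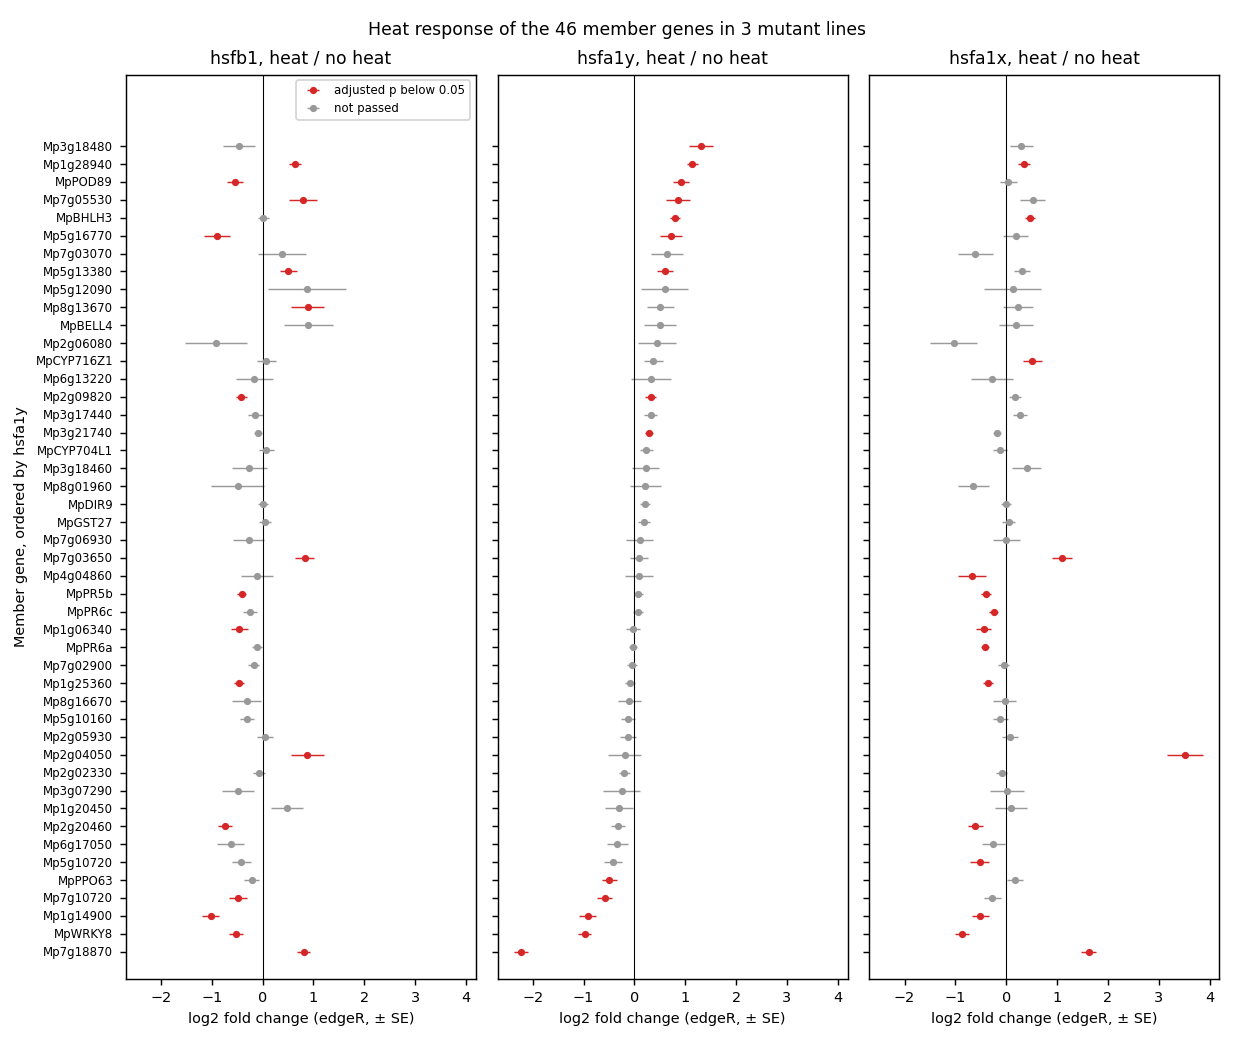
Fitted log2 fold change of heated over unheated plants with its standard error for the 46 members in hsfb1, hsfa1y and hsfa1x, on 1 shared axis and in the order of the hsfa1y values; red points passed the edgeR test at an adjusted p below 0.05. The largest values are those of Mp2g04050 in hsfa1x at 3.52 and of Mp7g18870 in hsfa1y at -2.23.

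The heat response was then compared between hsfb1 and hsfa1y by the interaction term of the same fit. It was higher in hsfb1 for 2 members and lower for 8, where the whole table gave 11.4% higher and 12.5% lower. Mp7g18870 had opposite responses: 90.7 and 108 CPM in heated and 55.7 and 58.5 in unheated hsfb1 (0.81 ± 0.13 SE, edgeR adjusted p = 1.84e-05), and 14.8 and 14.8 CPM in heated and 58.5 and 71.4 in unheated hsfa1y (-2.23 ± 0.14 SE, edgeR adjusted p = 8.65e-12). The difference of the 2 log2 responses was 3.04 ± 0.19 SE, edgeR adjusted p = 1.91e-11. It was the largest difference among the members. In hsfa1x the gene was higher with heat, as in BC3, at 41.5 and 40.6 CPM in heated and 15.9 and 10.99 in unheated plants (1.62 ± 0.15 SE, edgeR adjusted p = 3.31e-09).

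MpPOD89, Mp5g16770 and Mp2g09820 were lower with heat in hsfb1 and higher in hsfa1y. The share of all genes with such opposite calls was not computed. For MpPOD89 the levels were 83.6 and 74.3 CPM in heated and 123 and 109 in unheated hsfb1, and 319 and 288 CPM in heated and 157 and 144 in unheated hsfa1y. The difference of its responses was -1.46 ± 0.22 SE, edgeR adjusted p = 2.45e-05. That of Mp5g16770 was -1.61 ± 0.33 SE, edgeR adjusted p = 7.58e-04, that of Mp2g09820 -0.74 ± 0.16 SE, edgeR adjusted p = 9.29e-04 and that of MpBHLH3 -0.79 ± 0.14 SE, edgeR adjusted p = 1.58e-04. Mp3g18480 read 1.15 and 1.62 CPM in heated and 2.24 and 1.58 in unheated hsfb1, and 14.9 and 13.3 CPM in heated and 5.47 and 5.09 in unheated hsfa1y, a difference of -1.78 ± 0.40 SE, edgeR adjusted p = 0.00157. Its neighbour Mp3g18460 did not pass (-0.48 ± 0.43 SE, edgeR adjusted p = 0.489). Within the lines, the heat call of MpPOD89 in hsfb1 was lost without unheated library 1 (adjusted p = 0.0752), without heated library 2 (0.0835) and in the DESeq2 Wald test (0.0647). That of Mp5g16770 was lost in hsfb1 without unheated library 1 (adjusted p = 0.0710), and in hsfa1y without unheated library 2 (0.129) or heated library 1 (0.0834). That of Mp2g09820 was lost in hsfb1 without heated library 1 (adjusted p = 0.0929), and in hsfa1y without unheated library 1 (0.177), heated library 1 (0.0709) or heated library 2 (0.0599). The differences of the responses named here kept their calls with each library left out. The higher count of 2 became 1 without heated hsfa1y library 2 or heated hsfb1 library 2, and the lower count of 8 became 5 without unheated hsfa1y library 2.

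Lists of gene families, matched by symbol, put the members beside their relatives. The list of immune-type genes (PR proteins, NBS-type receptors, lectins and related symbols) held 3 members, and of its 47 tested genes 23 were lower and 4 higher in unheated hsfb1 than in hsfa1y, with a median log2 of -0.49. Over all genes tested, 22.1% were lower and 21.7% higher in that comparison. The transcription factor list held 3 members, with 118 of 312 lower and 52 higher, and a median of -0.16. Cytochromes P450 held 2 members, with 15 of 82 lower and 21 higher. Peroxidases held 1, with 13 of 53 lower and 16 higher. Polyphenol oxidases and laccases held 1, with 5 of 29 lower and 12 higher, and phenylpropanoid and flavonoid enzymes 1, with 35 of 132 lower and 30 higher. Antioxidant enzymes held 1, with 11 of 73 lower and 20 higher. The other 10 of 17 lists held no member: cell wall, auxin, photosynthesis and chlorophyll, cell cycle and replication, histones, receptor-like kinases, LEA proteins and dehydrins, heat shock proteins and factors, membrane transporters, and terpene synthases. Reads that map to several members of such a family may be split or dropped in counting, and no source used here says how this was done, so values of PR, peroxidase and polyphenol oxidase genes carry that limit.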

How the data were processed

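RNA of gemmalings was sequenced in 28 libraries in 14 groups of 2. The deposited table holds counts, whole numbers of reads per gene with no normalization by the authors. STAR is the aligner per the submitters' processing notes, while the STAR version, the counting program, the genome build, strandedness and the handling of reads with several hits stay unstated (not given in the sources used here). Columns were matched to samples by the library code in the labels, and 2 whose code is ambiguous once punctuation is dropped were placed in their group by the deposited sample sheet. One identifier stood on a second line with 0 reads (MpGST27) and was summed, which left 20574 genes. CPM was computed from column sums. Symbols came from RefSeq locus tags (17641 genes matched, 3091 with a symbol).

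The test was edgeR 4.0.16 under R 4.3.3 (quasi-likelihood F test, TMM scaling, filterByExpr) in 1 model with a mean per group. This left 13432 genes, which hold 99.98% of the reads, and all 46 members passed that filter; the rule had already asked for a wild-type level high enough to pass. Benjamini-Hochberg adjustment ran over these 13432 genes, and calls were made at an adjusted p below 0.05. Alternatives were DESeq2 1.42.0, its size factors in edgeR, no filter, fits of the compared groups alone, a replicate block and leaving out each library.

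The members, gene lists and tests were chosen with earlier results of these data known. Named genes are the 12 members with the lowest mean log2 ratio at 5 CPM or more and the 10 with the highest level. Those with a symbol and at least 2 CPM are named too, as are the 3 largest changes in each direction in each test. The 2 genes nearest to each limit of the rule on either side, at 5 CPM or more, are also named. Further members are given to account for the set and were chosen after their values were seen. A second table and the chromatin samples are not analysed here, and neither is the third table, of an alga.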

Additional observations from a re-analysis of the deposited data

Results flagged for a closer look

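The heat response differed between hsfb1 and hsfa1y, by the interaction term of the fit, in 10 members. Of all genes tested, 11.4% had a higher and 12.5% a lower response in hsfb1, and of the members 4.35% and 17.4%. The 5 members named here were among those with the largest fitted differences in each direction. Values are the log2 response in hsfb1 minus that in hsfa1y. Mp7g18870 differed by 3.04 ± 0.19 SE, edgeR adjusted p = 1.91e-11: its level was higher with heat in hsfb1 and lower with heat in hsfa1y. Mp7g03650 differed by 0.734 ± 0.26 SE (edgeR adjusted p = 0.039). That call was lost without 1 library in 5 cases and when the fit held the compared groups alone (adjusted p = 0.0529 to 0.194). Mp3g18480 differed by -1.78 ± 0.40 SE, edgeR adjusted p = 0.00157, Mp5g16770 by -1.61 ± 0.33 SE, edgeR adjusted p = 7.58e-04 and MpPOD89 by -1.46 ± 0.22 SE, edgeR adjusted p = 2.45e-05. The last 3 were higher with heat in hsfa1y; in hsfb1, Mp5g16770 and MpPOD89 were lower with heat and Mp3g18480 did not pass. The 4 hsfb1 libraries carry the last 4 library codes, which cannot be told apart from the genotype.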

How the results depend on the processing

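The rule gave 71 members with 0.1 CPM added (44 of the 46 among them) and 27 with 2 CPM added (26 of the 46), 58 with TMM-scaled library sizes (46 of the 46) and 43 to 53 when 1 library was left out; 19 genes were members under every one of these settings. In hsfb1 against hsfa1y without heat, 26 to 30 members were lower and 2 to 3 higher when 1 library was left out, and 32 to 33 were lower under the other alternatives. With heat and 1 library left out, hsfb1 had 3 to 6 higher and 6 to 10 lower, hsfa1y 6 to 7 higher and 4 to 8 lower, and hsfa1x 4 to 8 higher and 3 to 11 lower; the interaction had 1 to 2 higher and 5 to 8 lower. Its higher count was 1 when the fit held the compared groups alone. In hsfb1 against hsfa1y without heat, 16.6 to 23.1% of all genes were lower under the alternatives that kept every library, against 22.1% in the main fit. Shares of all genes are not given for the fits with 1 library left out. A change in member calls there cannot be told apart from a change over all genes. Of 281 values of named genes under alternatives, 259 stayed on their side of the threshold, 22 lost the call and 0 changed sign. The replicate numbers are shared by title alone: replicate differences correlated across genes at 0.18 (hsfa1y, heated and unheated), -0.091 (hsfb1), -0.082 (hsfa1x) and 0.12 (unheated hsfb1 and hsfa1y), with 2 pairs each. With the replicate block, 32 members were lower and 3 higher in unheated hsfb1, and of the heat calls 14 of 14 in hsfa1y, 17 of 17 in hsfb1 and 15 of 16 in hsfa1x were kept. The causes of these shifts were not tested. The planned comparison after 1 h and 5 h of heat in the second table was not run, because its identifiers could not be matched to those of the members. The 6 members under 2 CPM in the wild types rest on few reads, which limits the precision of their values.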
